A study of Mus musculus with 6 samples.

Results

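YAP and TEAD with their targets are described here as 10 genes, taken as the rows of the expected count table whose symbol is Yap1, Wwtr1, Tead1, Lats2, Cyr61, Ctgf, Ankrd1, Amotl2, Axl or Ajuba. All 10 were found among 24054 genes in the table, and all 10 were among the 10975 genes that passed the filter on low counts and were tested. RNA was sequenced from 2 cultured mouse lines. The first is TIBx, the parental line with genotype WT, and the second is TIBxDNAJ-PKAc, with genotype DNAJ-PKAc, and both carry the cell type label liver BNL 1ME A.7R.1, a chemically transformed line of mouse liver origin. DNAJ-PKAc joins the start of the co-chaperone DNAJB1 to the catalytic subunit of protein kinase A (PKA) and is the fusion kinase of fibrolamellar carcinoma. Both lines were kept in the same serum-containing medium with added glutamine, and each gave 3 libraries, replicates A, B and C. How the fusion was introduced and whether the line is a single clone is unknown from the labels. With 1 line per genotype, the fusion and other differences between the lines cannot be told apart.

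YAP, encoded by Yap1, and its relative TAZ, encoded by Wwtr1, are coactivators that enter the nucleus and bind the TEAD DNA-binding factors, which have little activity of their own. The Hippo pathway holds them back: the kinases MST1 and MST2 activate LATS1 and LATS2, which phosphorylate YAP and TAZ so that they stay in the cytoplasm or are degraded. In the liver this pathway limits organ size and cell fate, and PKA is known to act on it through LATS. RNA levels do not report the phosphorylation, the location or the amount of the YAP and TAZ proteins.

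TEAD factors read a short core, GGAATG, which reads CATTCC on the opposite strand, and the start regions of these genes were searched for it because the targets are grouped by their dependence on TEAD. RefSeq windows of 250 bases before to 50 bases after the start (build GRCm38.p6) were at hand for 8 of the 10 genes, in 10 windows, and not for Tead1 and Ctgf. All 8 genes held the core on 1 strand or the other, 7 of them before the start that defines the window. Over all 32851 windows of that length, 14.7% held it, and of the tested genes with a window 1211 of 8837 did, or 13.7%. The matches are printed with 10 bases on each side, 5′ to 3′ on the strand that reads GGAATG, with the core in capitals.

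Yap1: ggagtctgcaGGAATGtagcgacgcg
Wwtr1: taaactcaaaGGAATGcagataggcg
Lats2: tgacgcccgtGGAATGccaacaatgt
Amotl2: tgctatgccaGGAATGtgagagtttc
Ajuba, the distal match: ggggcactgtGGAATGtatccatcaa
Ajuba, the proximal match: gtttacagttGGAATGcgcggagggg
Cyr61: aaacatctcaGGAATGttggttggcg
Ankrd1, the distal match: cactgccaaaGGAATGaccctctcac
Ankrd1, the proximal match: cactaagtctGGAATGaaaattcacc
Axl: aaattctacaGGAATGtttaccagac

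In Cyr61 (core at chr3:145650083-145650088), Amotl2 (chr9:102717739-102717744) and Ajuba (chr14:54577842-54577847 and chr14:54577820-54577825) the core lay on the strand opposite to the gene. Ankrd1 held it at chr19:36120049-36120054 and chr19:36119962-36119967, Yap1 at chr9:8004732-8004737, Wwtr1 at chr3:57576041-57576046 and Axl at chr7:25788961-25788966, all on the strand of the gene. The Lats2 match (chr14:57746114-57746119) began at base 5 after the start in the upstream of its 2 windows on the gene's strand. For Amotl2 and Lats2 the match and the start of that window lie inside the gene span given below. The 250 bases before the start are printed for Cyr61 (chr3:145649986-145650235, minus strand) and Ankrd1 (chr19:36119845-36120094, minus strand), the 2 targets that passed the test, with the core in capitals as it stands on the strand of the gene.

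Cyr61: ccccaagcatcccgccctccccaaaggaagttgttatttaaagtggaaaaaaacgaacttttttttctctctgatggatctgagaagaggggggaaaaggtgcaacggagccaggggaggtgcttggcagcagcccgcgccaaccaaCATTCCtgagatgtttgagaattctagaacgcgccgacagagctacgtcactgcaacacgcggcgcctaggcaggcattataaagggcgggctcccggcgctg
Ankrd1: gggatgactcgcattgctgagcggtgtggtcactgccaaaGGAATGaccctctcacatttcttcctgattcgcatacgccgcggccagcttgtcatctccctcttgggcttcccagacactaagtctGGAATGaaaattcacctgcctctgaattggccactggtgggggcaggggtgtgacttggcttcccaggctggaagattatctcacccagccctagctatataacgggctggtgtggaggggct

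The full cyclic AMP response element TGACGTCA, a palindrome, was in none of the 8 genes' windows, against 1.79% of all windows. With so low a share, absence from 8 genes carries little information. Shorter or imperfect forms of the element were not searched. Genes called higher and genes called lower in DNAJ-PKAc both held the TEAD core in 16.4% of cases with a window (19 of 116 and 28 of 171). Of the lists described below, 5 of 10 MRTF and SRF genes with a window held it, 4 of 9 TEAD factors and cofactors, 7 of 22 upstream Hippo regulators, 3 of 17 further YAP and TEAD targets and 2 of 15 Hippo kinases and adaptors. It was in 1 of 15 cell cycle genes, 0 of 6 AP-1 genes, 0 of 4 AXL relatives and ligands and 0 of 1 further CCN gene. A match is a stretch of letters and not a measured binding site.

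Library totals ran from 8095549 to 9969590 expected counts. Within-group pairs of libraries differed by 3.67 to 94.4 times the counting noise (chi-square per degree of freedom), so all 6 were counted separately. The labels do not say that replicates were separate cultures, so the p-values here cover library-to-library spread, which may be technical. WT B stood apart in RNA makeup, with the nuclear RNA Malat1 at 10412 CPM when counts are divided by unscaled library totals, against 1065 to 4639 in the other 5 libraries. DNAJ-PKAc C stood apart in proliferation genes: the median of 18 cell cycle genes lay 1.09 below the WT mean on the log2 scale (-1.09), against 1.89 and 1.99 above it in DNAJ-PKAc A and B. All 8 hepatocyte markers searched, among them Alb and Hnf4a, had 0 counts in every library, where a count of 0 allows up to 0.371 CPM of the unscaled total in the shallowest library, for counting error only. Of 8 mesenchymal markers 7 were tested, with 0 higher and 0 lower, and Thy1 had 0 counts in every library. The filament gene Vim was at 11556 to 14225 CPM (counts scaled to library size by TMM, used from here on). The 8 markers summed to 28477 to 33823 CPM in WT and to 18726, 18617 and 36378 CPM in fusion libraries A, B and C, where the matrix gene Fn1 measured 629, 609 and 6053 CPM. In bulk RNA, fewer cells of a type and less RNA per cell cannot be told apart.

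The comparison asked how the RNA of the YAP and TEAD genes differed between cells with and without the fusion kinase. Per-library values of a gene follow the order of libraries A, B, C. Of the 10 genes, 2 rose in DNAJ-PKAc and 0 fell (edgeR quasi-likelihood test, adjusted p under 0.05). Both are TEAD targets: Cyr61, a secreted matrix protein, at 4.01-fold, and Ankrd1, a stretch-responsive nuclear and sarcomeric protein, at 4.54-fold. Among all genes tested 1.37% passed in that direction and 2.14% in the other. Ctgf had the largest difference, 12.1-fold higher, with an adjusted p of 0.0501. The coactivator gene Wwtr1 was 1.80-fold lower, with an adjusted p of 0.0562. Yap1, Tead1, Amotl2 and Axl had 95% intervals that held 0.

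Of the 6 target genes (Cyr61, Ctgf, Ankrd1, Amotl2, Axl and Ajuba) 5 had fitted differences above 0, as did 53.9% of all genes tested, and in 4 of them all DNAJ-PKAc libraries lay above all WT libraries. Over the 10 genes together 5 lay wholly above and 1 wholly below, where 15.8% and 13.1% of all genes tested did. The median log2 difference was 0.79 over the 10 genes and 0.05 over all genes tested. Without DNAJ-PKAc C these medians were 0.25 and 0.00. These are counts and medians over genes chosen as a group, and they carry no test of the group. DNAJ-PKAc C was the highest of the 6 libraries for 5 of the 10 genes.

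**Figure D1:**
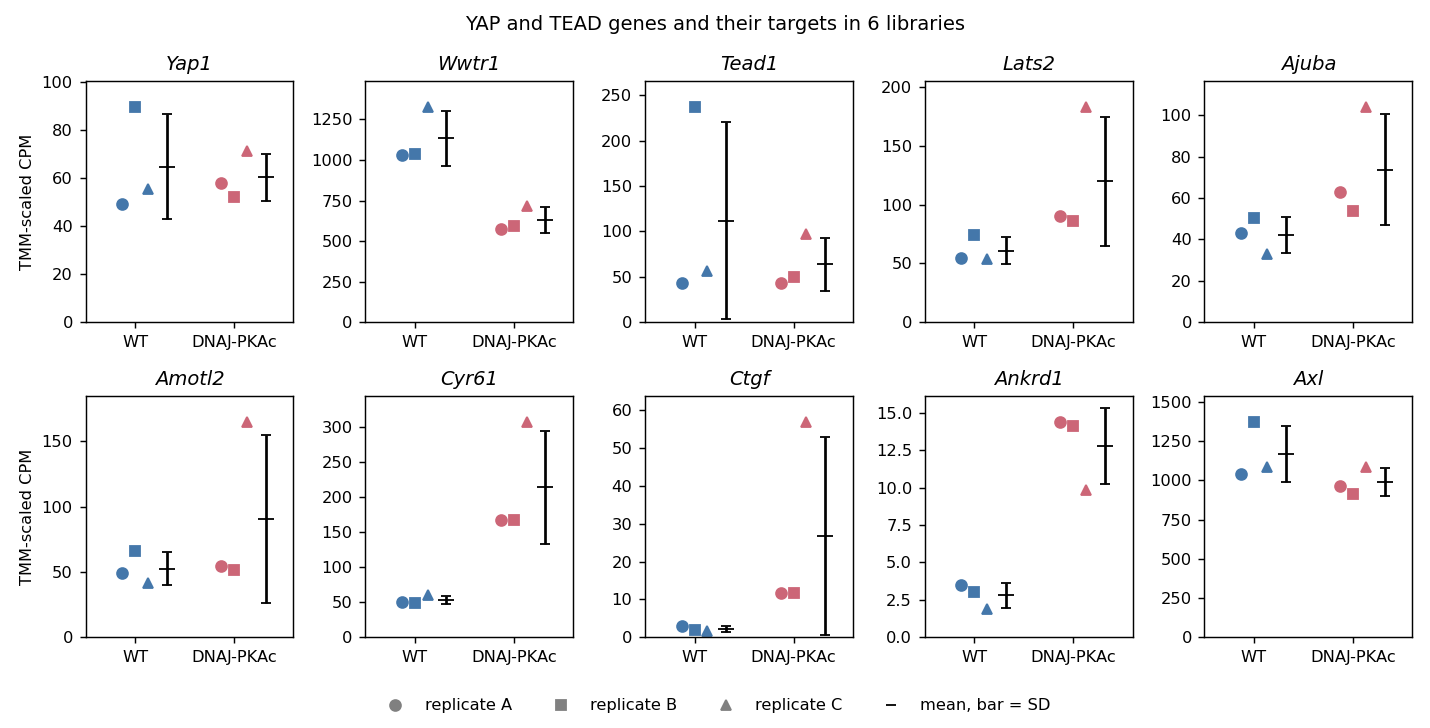
TMM-scaled CPM (y axis, linear, from 0) of the 10 genes in the WT and DNAJ-PKAc libraries. Each symbol is 1 library (circle A, square B, triangle C) and the black mark with its bar is the mean with the SD of 3 libraries. Wwtr1 stands lower in all 3 DNAJ-PKAc libraries, Cyr61, Ctgf and Ankrd1 stand higher, and the triangle of DNAJ-PKAc C is the highest point for Lats2, Ajuba, Amotl2, Cyr61 and Ctgf.

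Wwtr1 (chr3:57455644-57575910 in GRCm38.p6), the gene of the coactivator TAZ, measured 1032, 1039 and 1327 CPM in WT and 575, 596 and 719 CPM in the fusion line. Every DNAJ-PKAc library lay below every WT library, and the means were 630 ± 77.9 and 1133 ± 168 CPM (SD, n = 3). The log2 difference was -0.85 (SE 0.18, 95% interval -1.27 to -0.42) and missed the threshold (edgeR adjusted p = 0.0562). Without DNAJ-PKAc C it was -0.95 with an adjusted p of 0.00992, and without any other single library the adjusted p was 0.0785 to 0.257.

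Yap1 (chr9:7931999-8004638), the gene of the coactivator YAP, measured 49.0, 89.5 and 55.5 CPM in WT and 57.7, 52.1 and 71.0 CPM in the fusion line. The groups overlapped, and WT B was the highest library. The log2 difference was -0.10 (SE 0.26, 95% interval -0.71 to 0.51, edgeR adjusted p = 0.842).

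Levels of different genes were compared per kilobase of their longest GENCODE transcript. On that scale Wwtr1 stood at 241 ± 35.9 CPM per kilobase (SD, n = 3) in WT and 134 ± 16.6 in DNAJ-PKAc, and Yap1 at 12.2 ± 4.12 and 11.4 ± 1.84. TAZ RNA was thus the more abundant coactivator RNA in both lines. The ratio of Wwtr1 to Yap1 was 23.7, 13.0 and 26.9 in WT and 11.2, 12.9 and 11.4 in the fusion line. All 3 fusion libraries lay below all 3 WT libraries, by a narrow margin to WT B. An exact 2-sided permutation test gave p = 0.1, the smallest that 3 libraries against 3 allow (adjusted p = 0.1 over the 2 ratios tested, both chosen after their values were seen).

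Tead1 (chr7:112679356-112906784), the gene of 1 of the 4 TEAD factors, varied most of the 10 genes among the WT libraries relative to its mean. It measured 43.0, 237 and 56.1 CPM in WT and 43.6, 50.4 and 97.4 CPM in the fusion line. WT B was 4.78 times the mean of WT A and C, a ratio that 0.383% of all genes tested exceeded, and the other 5 libraries overlapped. The log2 difference of -0.81 (SE 0.67, 95% interval -2.39 to 0.77, edgeR adjusted p = 0.495) turned to 0.32 without WT B (adjusted p = 0.682). WT B also had the high Malat1 level given above, whose part in the Tead1 value was not tested.

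Among the 4 TEAD genes, Tead2 took the largest share per kilobase in every library except WT B, where Tead1 did. Tead2 made up 54.9% and 58.2% of the TEAD total in WT A and C and 54.2%, 55.4% and 57.5% in the fusion line. In WT B it made up 31.6%, beside 46.9% for Tead1. Tead3 held at most 5.48% in any library. Tead2 and Tead4 were higher in all 3 DNAJ-PKAc libraries than in any WT library without passing the test: Tead2 differed by log2 0.66 (edgeR adjusted p = 0.0828) and Tead4 by 0.81 (0.117).

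**Figure D2:**
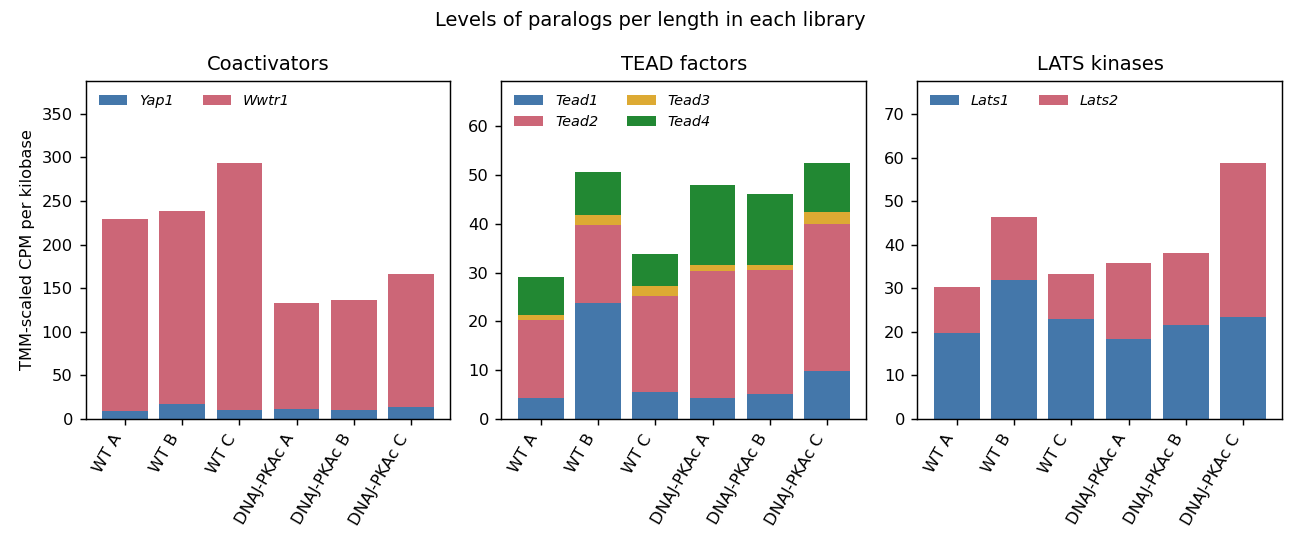
Stacked levels of the coactivator, TEAD and LATS genes in each of the 6 libraries, in TMM-scaled CPM per kilobase of the longest transcript (y axis, linear, from 0, with its own scale in each panel). Wwtr1 makes up 91.8% to 96.4% of the coactivator total, Tead1 is tall in WT B only, and Lats2 takes 43.4% to 60.1% of the LATS total in the fusion libraries against 30.9% to 34.8% in WT.

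Lats2, Amotl2 and Ajuba act on YAP themselves and are also read as its targets. LATS2 is a kinase that phosphorylates YAP and TAZ, AMOTL2 is an angiomotin that holds YAP at junctions and the actin skeleton, and AJUBA is a LIM protein that binds and restrains LATS. None of the 3 genes passed the test. All 3 had their highest value in DNAJ-PKAc C.

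Lats2 (chr14:57689662-57746212) measured 55.0, 74.2 and 53.7 CPM in WT and 90.1, 86.0 and 183 CPM in the fusion line. The groups did not overlap, and DNAJ-PKAc C was 2.08 times the mean of DNAJ-PKAc A and B. The log2 difference was 0.97 (SE 0.33, edgeR adjusted p = 0.161), and it was 0.53 without DNAJ-PKAc C (adjusted p = 0.0682).

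Its paralog Lats1 was at 132 to 169 CPM in DNAJ-PKAc and 143 to 230 CPM in WT, with a log2 difference of -0.24 (edgeR adjusted p = 0.539). Per kilobase, the ratio of Lats2 to Lats1 was 0.534, 0.447 and 0.45 in WT and 0.945, 0.767 and 1.5 in the fusion line. Every fusion library lay above every WT library. An exact permutation test gave a 2-sided p = 0.1, again the smallest possible and the value that any ratio without overlap gives. This ratio too was chosen after its values were seen.

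Ajuba (chr14:54567469-54577661) measured 43.0, 50.6 and 32.9 CPM in WT and 63.1, 53.8 and 104 CPM in the fusion line. The lowest fusion library lay just above the highest WT library. The log2 difference was 0.80 (SE 0.29, edgeR adjusted p = 0.183). Of its relatives, Limd1 was at 120 to 130 CPM in WT and 108 to 117 CPM in DNAJ-PKAc (log2 -0.18, adjusted p = 0.465), and Wtip had at most 0.11 CPM in any library and was not tested.

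Amotl2 (chr9:102717091-102733418) measured 49.3, 66.2 and 41.8 CPM in WT and 54.7, 51.6 and 165 CPM in the fusion line. DNAJ-PKAc A and B lay within the WT range, and C was 3.1 times their mean. The log2 difference of 0.78 (SE 0.47, edgeR adjusted p = 0.354) was 0.02 without DNAJ-PKAc C (adjusted p = 0.949). The angiomotin gene Amot also had its highest level in that library, at 529 CPM against 159 to 254 CPM in the other 5.

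Cyr61 (now Ccn1, chr3:145646971-145649985) encodes a secreted matricellular protein that signals through integrins and is a standard readout of YAP activity. It measured 51.0, 48.9 and 60.3 CPM in WT and 168, 167 and 308 CPM in the fusion line. Every fusion library was above the WT range, and the lowest, at 167 CPM, was well clear of the highest WT value. Mean Cyr61 was 53.4 ± 6.06 CPM in WT and 214 ± 80.8 CPM in DNAJ-PKAc (SD, n = 3). The gene rose 4.01-fold (edgeR log2 difference 2.00 with SE 0.28, adjusted p = 0.0147), and 0.866% of genes tested had a larger fitted difference. The call was lost without WT A, B or C (adjusted p = 0.0674 to 0.082) and kept without any 1 DNAJ-PKAc library, with log2 differences of 1.65 to 2.16 in those 6 fits.

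Ctgf (now Ccn2, chr10:24595442-24598683) encodes the related connective tissue growth factor. Its reads were few: 59 counts in WT in total and 682 in the fusion line. It measured 3.07, 1.87 and 1.66 CPM in WT and 11.8, 11.7 and 57.0 CPM in the fusion line. The groups did not overlap, but DNAJ-PKAc C was 4.85 times the mean of A and B. The fold of 12.1 (log2 3.60, SE 0.74, 95% interval 1.85 to 5.35) missed the threshold (edgeR adjusted p = 0.0501). Without DNAJ-PKAc C it was 5.32-fold and passed (adjusted p = 0.00248), and without any other single library it did not (0.0767 to 0.19). Over all 18 alternatives Ctgf was called in 9. The gene overlaps the long noncoding gene Gm15270, which has no row in the table.

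Within the CCN family, to which both belong, Cyr61 made up 68.0% to 71.4% of the total per kilobase in WT and 78.9% to 91.3% in DNAJ-PKAc. Wisp1 (Ccn4) took the second largest share in WT, at 24.2% to 29.2%, and Ctgf did in DNAJ-PKAc, at 5.18% to 11.9%. Wisp1 measured 43.5, 48.7 and 65.2 CPM in WT and 14.8, 15.1 and 91.1 CPM in the fusion line (log2 -0.38, edgeR adjusted p = 0.772). Its fusion libraries lay on both sides of the WT range. Nov and Wisp2 stayed below 1 CPM in every library, and Wisp3 had 0 counts in all 6.

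Ankrd1 (chr19:36111965-36119844) measured 3.51, 3.03 and 1.88 CPM in WT and 14.4, 14.1 and 9.87 CPM in the fusion line. It was the target that was lowest, not highest, in DNAJ-PKAc C within its group, at 0.694 times the mean of A and B. Mean Ankrd1 was 2.81 ± 0.839 CPM in WT and 12.8 ± 2.51 CPM in DNAJ-PKAc (SD, n = 3). The gene rose 4.54-fold (edgeR log2 difference 2.18 with SE 0.32, adjusted p = 0.017). The call was kept without DNAJ-PKAc C (adjusted p = 0.00229) and lost without any other single library (0.0651 to 0.088), with log2 differences of 1.96 to 2.38 in the 6 fits.

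Axl (chr7:25756500-25788924) encodes a receptor tyrosine kinase, and it was the most abundant of the 10 genes per kilobase. It measured 1040, 1373 and 1087 CPM in WT and 963, 912 and 1085 CPM in the fusion line. The groups overlapped, and the log2 difference was -0.24 (SE 0.18, 95% interval -0.66 to 0.17, edgeR adjusted p = 0.436). Per kilobase Axl made up 94.3% to 96.5% of the total of Axl, Tyro3 and Mertk in every library. Mertk, a relative that clears dying cells, was at 6.79 to 10.3 CPM in WT and 0.123 to 2.92 CPM in DNAJ-PKAc (log2 -2.82, adjusted p = 0.126). It had 29 counts in the fusion line in total and passed the filter through the WT libraries. The ligand gene Gas6 had 0 counts in all 6 libraries, and the second ligand gene, Pros1, was at 3.85 to 5.3 CPM in WT and 1.09 to 2.47 CPM in DNAJ-PKAc (log2 -1.47, adjusted p = 0.092).

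In WT the order of the 10 genes per kilobase was Axl, Wwtr1, Cyr61, Ajuba, Yap1, Amotl2, Lats2, Tead1, Ankrd1 and Ctgf. Axl and Wwtr1, at 244 to 322 and 220 to 283 CPM per kilobase, overlapped, and the 5 genes from Ajuba to Tead1 overlapped as well, with means of 11.2 to 12.4. Ankrd1 (0.929 to 1.74) and Ctgf (0.665 to 1.23) overlapped at the bottom. In DNAJ-PKAc the first 3 places were the same, with Wwtr1 (122 to 153) and Cyr61 (82.7 to 152) now overlapping. Ctgf (4.71 to 22.9) overlapped all the other genes below these places: Lats2, Ajuba, Amotl2, Yap1, Tead1 and Ankrd1.

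**Figure D3:**
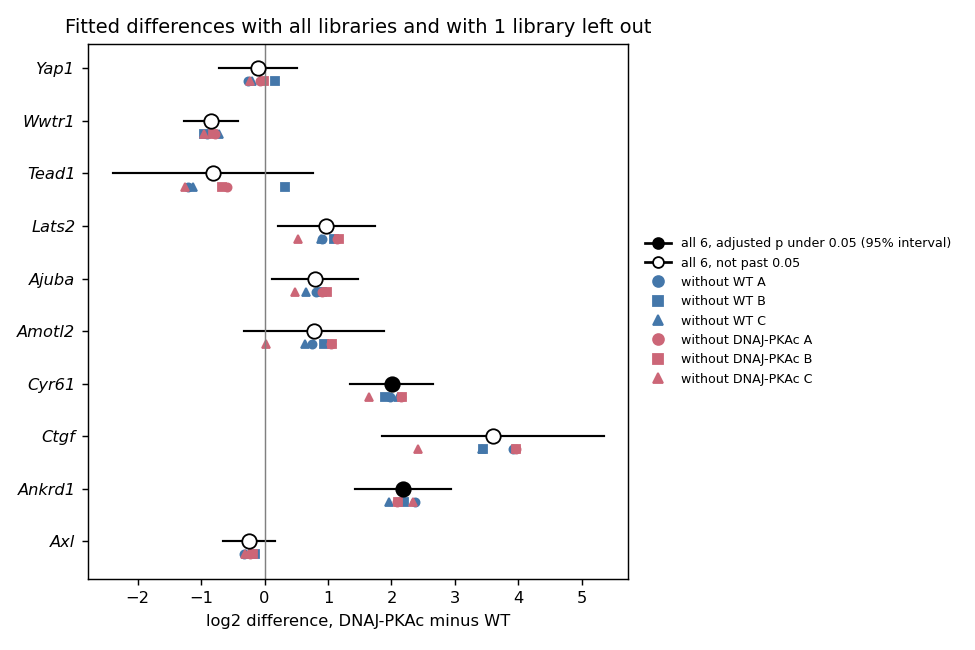
Fitted log2 difference of DNAJ-PKAc minus WT for the 10 genes (x axis). Large circles with lines are the values and 95% intervals with all 6 libraries, filled where the adjusted p is under 0.05, and small symbols are the values with 1 library left out. Leaving out DNAJ-PKAc C moves Ctgf from 3.60 to 2.41 and Amotl2 from 0.78 to 0.02, and leaving out WT B moves Tead1 from -0.81 to 0.32.

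Without DNAJ-PKAc C, 3 of the 10 genes rose (Cyr61, Ctgf and Ankrd1) and Wwtr1 fell, in a fit in which 25.3% of all genes passed. Without both WT B and DNAJ-PKAc C, Lats2 and Ajuba also rose, and Axl also fell, where 48.5% of all genes passed. Each fit lacking 1 WT library gave 0 calls among the 10 genes, and a fit lacking fusion library A or B gave 1, Cyr61. Of all genes, 0.766%, 0.994% and 0.821% passed without WT A, B and C, and 0.703% and 0.693% without DNAJ-PKAc A and B. With DESeq2, 8.87% of all genes passed, and 3 of the 10 rose and 1 fell, with adjusted p-values of 9.81e-09 for Cyr61, 1.35e-06 for Ankrd1, 3.94e-06 for Ctgf and 0.000348 for Wwtr1. Of all genes, 3.51% passed in either direction in edgeR with all libraries, 3.78% with RLE factors, 46.3% with limma-voom and library quality weights, 1.81% with the replicate letter as a block and 0.656% at a threshold of 0.01.

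No other gene of the Hippo lists passed the edgeR test with all libraries, where 3.51% of all genes tested passed in either direction. At that share, 0 calls in lists of this size carry little information. Of the Hippo kinases and their adaptors, 17 of 18 were tested, with 0 higher and 0 lower and a median log2 difference of 0.13. Stk4, which encodes the kinase MST1, was at 61.6 to 69.6 CPM in WT and 94.0 to 107 CPM in DNAJ-PKAc (log2 0.62, edgeR adjusted p = 0.0679), and Mink1, a kinase that acts beside it, was at log2 -0.60 (0.14). The abundant kinase genes Taok1 and Stk3 were at -0.48 (0.274) and 0.19 (0.624). Of 27 upstream regulators 26 were in the table and 21 were tested, with 0 higher and 0 lower and a median of 0.06. Dchs1, a large cadherin that signals to Hippo, was at -1.48 (0.123) and the phosphatase scaffold gene Strn4 at 0.44 (0.129), while Amot and Amotl1 were at 0.63 (0.398) and -0.20 (0.648). Of the TEAD factors other than Tead1 and their cofactors, 7 of 10 were tested, with 0 higher and 0 lower. The coactivator binding partner gene Wbp2 was at -0.56 (0.138) and Irf2bp2 at 0.22 (0.637), and the 3 cofactor genes Vgll1, Vgll2 and Vgll3 had 0 counts in every library. At an unadjusted p under 0.05, 4 kinase or adaptor genes, 4 upstream regulators and 3 TEAD factors or cofactors passed, where 21.5% of all genes tested did. With DESeq2, 2 genes of each of these 3 lists were called, where 8.87% of all genes passed. Without DNAJ-PKAc C edgeR called 5, 3 and 3, where 25.3% of all genes passed. In that last fit the median was -0.03 for the kinases and adaptors and 0.00 for the upstream regulators.

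Among further YAP and TEAD targets, 24 of 28 were tested, 1 rose and 0 fell, and the median log2 difference was 0.24. Over all genes tested 1.37% rose and 2.14% fell, with a median of 0.05. Thbs1, which encodes the matrix protein thrombospondin-1, measured 3.62, 7.12 and 4.86 CPM in WT and 25.5, 24.9 and 73.1 CPM in the fusion line. It rose 7.91-fold (log2 2.98, SE 0.52, edgeR adjusted p = 0.0289), with no overlap between the groups, and C was again the highest. The call was lost without any 1 of the libraries other than DNAJ-PKAc C (adjusted p = 0.0577 to 0.13), and without DNAJ-PKAc C the fold was 4.86. Nt5e, the ectonucleotidase CD73, stood lower in all 3 fusion libraries, at 1.19 to 2.47 CPM against 4.53 to 6.68 CPM (log2 -1.71, adjusted p = 0.0544). The most abundant gene of the list, Myof, differed by -0.26 (0.589), and Ptgs2 measured 486, 536 and 164 CPM in the fusion line, the last of them within the WT range of 86.3 to 261 CPM. Igfbp3, Fjx1 and Dlc1 had 0 counts in all libraries. Without DNAJ-PKAc C, 4 genes of the list were higher and 2 lower, where 25.3% of all genes passed in either direction. The median turned to -0.07 in that fit. Without WT C it was 0.08.

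YAP targets are shared with other actin- and growth-driven factors. Of genes of SRF and its MRTF coactivators, 10 of 13 were tested, and 3 rose and 0 fell, with a median log2 difference of 0.32. Actg2 and Myl9, with 11 and 8 WT counts in total, passed the filter only through the fusion libraries. Both enter the count of genes tested and the median, and Actg2 also enters the count that rose. Of all genes tested 1.37% rose. Tagln, Cnn1 and Myocd were not tested: Cnn1 and Myocd had 0 counts in every library, and Tagln had at most 1. Acta2, smooth muscle actin, measured 10.5, 10.2 and 7.18 CPM in WT and 35.4, 34.7 and 56.7 CPM in the fusion line and rose 4.55-fold (edgeR adjusted p = 0.0102). Actg2, enteric smooth muscle actin, rose 9.26-fold, from 0.413 ± 0.28 to 3.93 ± 0.659 CPM (SD, n = 3; 0.0233), with 11 counts in WT in total, and it passed the filter through the fusion libraries. Srf itself rose 1.69-fold, from 48.9 ± 2.26 to 82.8 ± 7.98 CPM (SD, n = 3; 0.04). All 3 kept the call without DNAJ-PKAc C. Acta2 lost it without WT A, B or C (0.0527 to 0.0569), and Actg2 and Srf lost it without any 1 library other than DNAJ-PKAc C (0.0715 to 0.194). With the replicate letter as a block the adjusted p was 0.0545 for Actg2 and 0.125 for Srf, and for Srf it was 0.0521 with upper-quartile scaling. The abundant genes Myh9 and Flna were at log2 -0.02 (0.966) and 0.41 (0.265).

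AP-1, whose subunits bind enhancers together with TEAD, held 7 tested genes with 0 higher and 0 lower. Over all genes tested 3.51% passed in either direction, so 0 calls in lists this small carry little information. Jun was lower in all fusion libraries, at 115 to 198 CPM against 210 to 268 CPM (log2 -0.59, edgeR adjusted p = 0.205), and Fosl2 was at 0.61 (0.295), Junb at 0.04 (0.926) and Fosl1 at 0.18 (0.854). At an unadjusted p under 0.05 it held 1, and DESeq2 called 0. None of 18 cell cycle genes passed either, with Ccne1 at 1.49 (0.108) and Cdk1 at 2.00 (0.127), and the abundant Ccnd1 at -0.29 (0.398) and Top2a at 0.92 (0.451). Of these 18, 7 passed at an unadjusted p under 0.05, 2 were called higher with DESeq2, and 17 were called higher without DNAJ-PKAc C. Of all genes tested 21.5% passed at that unadjusted p. In either direction 8.87% were called with DESeq2 and 25.3% without DNAJ-PKAc C. In DNAJ-PKAc C, where Cyr61, Ctgf, Lats2, Amotl2, Ajuba and Thbs1 were highest, the summed cell cycle level was 850 CPM, against 1479 to 1742 CPM in WT and 3705 and 3829 CPM in the other fusion libraries. The mesenchymal markers given above also summed highest in that library, though they did not move together. Col1a2 and Pdgfrb peaked there, Vim, Col1a1, Col3a1 and Fn1 peaked in WT libraries, and S100a4 was lowest there. The part of proliferation or of the mesenchymal genes in these target levels was not tested.

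**Figure D4:**
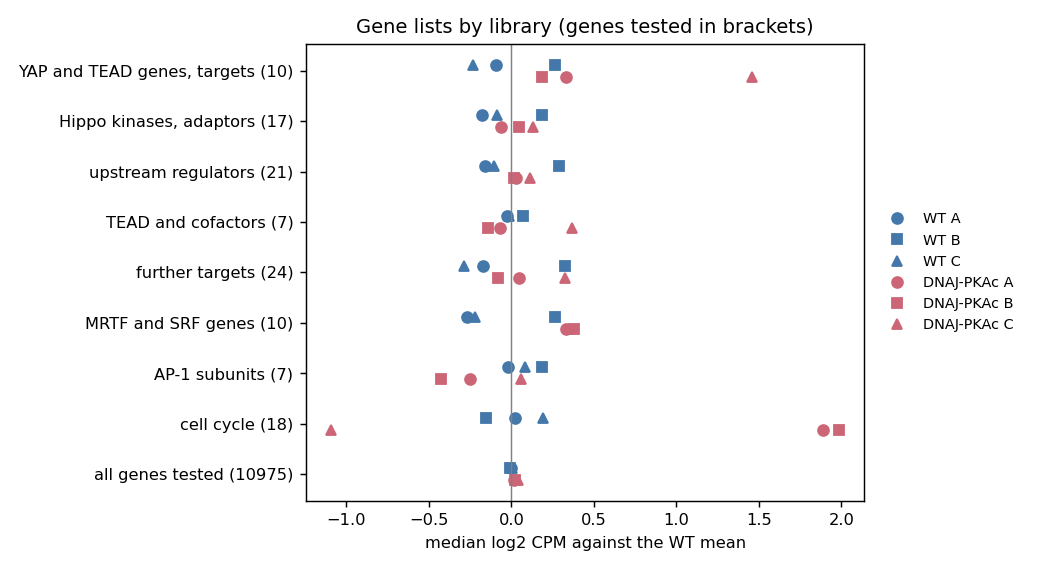
Median log2 CPM of each gene list against the WT mean (x axis) in every library, with the number of genes tested in brackets. The 10 YAP and TEAD genes lie at 0.33, 0.19 and 1.46 in the fusion line, the Hippo kinases and upstream regulators stay within 0.29 of 0 in all libraries, and cell cycle genes split DNAJ-PKAc C (-1.09) from A and B (1.89 and 1.99).

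The genes whose profile over the 6 libraries was nearest to a given gene were found by the mean absolute gap between centred log2 CPM values, among 8607 genes of at least 10 CPM on average. For Cyr61 these were the transcription factor gene Cebpd (gap 0.0962), the calcitonin receptor-like receptor gene Calcrl (0.118) and the small GTPase gene Rhou (0.124). Cebpd ran from 23.7 to 31.7 CPM in WT and measured 102, 93.0 and 181 CPM in the fusion line. For Ctgf they were Fabp5 (0.332), a fatty acid carrier gene, the hyaluronan synthase gene Has2 (0.373) and Fgf7 (0.44), with wider gaps than for Cyr61. Yap1 was nearest to Scaf1 (0.0349), Ppp2r5e (0.0474) and Mark2 (0.0514), which, like it, were highest in WT B. Axl was nearest to Dcaf7 (0.0393), Jak1 (0.0412) and Ggnbp2 (0.0447). All of these share the same 6 libraries, and the gaps are descriptions with no test.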

How the data were processed

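The values deposited by the authors are expected counts, unscaled, with 1 row per gene symbol and 1 column per library. The submitters' processing notes name STAR (2.5.2b), RSEM (1.3.0) and mm10, without roles. Per the labels' protocols, total RNA went into a stranded library kit. The annotation used for counting and its strand setting were not given in the sources used here. Lats2, Wwtr1 and Ctgf overlap other annotated genes that have no row of their own in the table, so reads could be shared.

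Counts were rounded to whole numbers, filtered by filterByExpr (minimum count 10), scaled by TMM and fitted in edgeR 4.0.16 (R 4.3.3) by the robust quasi-likelihood test with the group as the only term. P-values are 2-sided and Benjamini-Hochberg adjusted over 10975 genes, and the threshold was 0.05. The SE is the log2 difference over the root of F. The fits were tested on simulated data. The simulated counts had the same dispersion for all genes and no library that stood apart, so the case of WT B and DNAJ-PKAc C was not covered. The 10 genes and all lists were chosen with earlier results of these data known, so no p is given over them, and the rule for named genes was: all 10, the 2 of smallest adjusted p in each list, up to 2 more of highest CPM, and every call. Log2 CPM values used a prior count of 2. Library totals were 8095549 to 9969590. Alternatives also used DESeq2 1.42.0 and limma 3.58.1. Lengths are from GENCODE vM21, and gene positions and promoter windows from RefSeq on GRCm38.p6, the assembly of mm10. No protein sequence was used here.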

Additional observations from a re-analysis of the deposited data

How the results depend on the processing

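The 2 calls among the 10 genes became 4 with RLE factors, 4 with DESeq2, 6 with limma-voom and library quality weights, 7 when WT B and DNAJ-PKAc C were both dropped, and 0 at a threshold of 0.01, and ran from 0 to 4 with 1 library left out. Over all genes the 385 calls became 974 with DESeq2, 5076 with quality weights, 199 with the replicate block, 72 at the threshold of 0.01 and 5336 with both libraries dropped, and ran from 77 to 2808 with 1 library left out. Upper-quartile scaling split 409 calls into 114 higher and 295 lower, against 150 and 235. Over the pathway lists the 4 calls became 17 with DESeq2, 59 with quality weights, 2 with the replicate block, 0 at 0.01 and 60 with both dropped, and ran from 0 to 41 with 1 library left out. Of all genes, 8.87%, 46.3%, 1.81%, 0.656% and 48.5% passed in those settings, in that order, against 3.51% in the main fit. With 1 library left out 0.693% to 25.3% passed. Deviations from the group means correlated at 0.211, -0.198 and 0.0282 between the libraries of letters A, B and C. With WT B and DNAJ-PKAc C standing apart, these values cannot decide whether the letters pair the libraries. The labels do not say that the letters mark a shared batch, so the main fit used no pairing. The replicate block left 2 of the 10 genes called. Yap1 turned to a log2 difference of 0.16 without WT B, 0.031 with quality weights and 0.027 lacking both libraries, and Tead1 to 0.32 without WT B. With 1 library left out Yap1 ran from -0.265 to 0.163 and Tead1 from -1.251 to 0.317. The cause was not tested. Of 180 alternative results for single genes among the 10, 147 kept direction and side of the threshold, 10 lost the call, 19 gained it and 4 turned direction. These include the main fit read at the threshold of 0.01, which is no refit. The losses were all of the 2 called genes: Cyr61 in 4 of 18 alternatives and Ankrd1 in 6 of 18. Fits with fewer libraries have fewer degrees of freedom. At this depth, Ctgf, Ankrd1 and Actg2 rest on 59, 75 and 11 WT counts in total.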
